A study of Danio rerio with 9 samples.

Results

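The comparison was between brains of zebrafish given chlorpyrifos and brains of untreated zebrafish, and the measurement was the level of circular RNAs (circRNAs). The CPF group held 3 libraries whose treatment label reads CPF toxication, and the control group held 3 libraries labelled No toxication. Another group of 3 libraries, labelled CYP toxication for cypermethrin, served as a second set of values beside these. It also entered the limma fit below, both its filter and its estimate of spread. All libraries were made from total RNA of brain tissue, extracted with Trizol. Information on dose, duration, strain, sex, age, pooling of fish and batches is not given in the sources used here. Whether each library stands for its own fish is likewise unknown, and the p-values therefore reflect only library-to-library spread, which may be technical. The brain label could not be checked against marker genes, since the table names no genes. Bulk tissue was measured, so fewer cells of a type and less RNA per cell cannot be told apart. The circRNAs compared were all those with a read in at least 2 of the 6 CPF and control libraries. They were 1353 of the 2581 circRNAs in the deposited table. Just outside that limit lay 955 circRNAs with a read in 1 of the 6 libraries, with a median of 1 read, and just inside it lay 464 with reads in 2 libraries, with a median of 4 reads. The remaining 273 had reads in CYP libraries alone.

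A circRNA forms when the end of an exon is spliced back to the start of the same or an earlier exon, which closes the RNA into a ring. Having no free ends, such rings resist exonucleases, and they are known to be abundant in brain, where many arise from genes that act at synapses. They are recognised in sequencing data by reads across the back-splice junction, which no linear transcript of the gene contains. Chlorpyrifos is an organophosphate insecticide. Its oxon, made in the body, inhibits acetylcholinesterase, the enzyme that clears the transmitter acetylcholine from synapses. The table identifies circRNAs by number only and pairs none of them with a host gene, a position or a sequence, so the levels below are those of rings whose parent genes are not named here.

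The library totals by which levels were scaled did not separate the groups. They were 68.7 to 91.0 in CPF and 71.5 to 94.7 in control, in units of 1000000 reads. These totals were recovered from the deposited values, and which reads they count is not given in the sources used here. Junction reads of the compared circRNAs numbered 2756 to 4136 per CPF library and 1590 to 1863 per control library. One read was worth 0.0106 to 0.0145 RPM (reads per 1000000 reads) in these 6 libraries, so a circRNA without a read may still stand at up to 3 reads, which is 0.0317 to 0.0436 RPM. Such limits, and the counting intervals below, leave out all error but that of counting, since PCR makes copies that are not independent molecules; they cover counting error only. No pair of libraries within a group lay within sampling noise of the other, with a chi-square per degree of freedom of 2.04 to 2.70 in CPF and 2.35 to 5.09 in control. It was taken over circRNAs with at least 10 reads in the pair, 50 to 177 of them within groups. Between CPF and control libraries it was 2.59 to 8.36, a range that overlapped with both of those within groups. The library control 1 stood apart from control 2 and control 3. It held fewer circRNAs, each with more reads: 376 compared circRNAs were detected there, with 4.95 reads on average, against 608 and 595 circRNAs with 2.67 reads each in the other two. In control 1, 13.6% of the detected circRNAs had a single read (95% Wilson interval 10.5% to 17.4%), against 40.6% and 46.9% in the other two control libraries and 30.9% to 41.8% in CPF.

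CPF libraries held about double the circRNA signal of control libraries, over a table whose filter is not given. The summed level of the compared circRNAs was 37.4, 50.2 and 40.1 RPM in CPF libraries 1 to 3, against 19.7, 22.7 and 20.1 RPM in control libraries 1 to 3. Every CPF library lay above every control library. The means were 42.6 ± 6.75 RPM in CPF and 20.8 ± 1.62 RPM in control (SD, n = 3 each), a 2.03-fold difference (log2 ratio 1.02, SE 0.14). Over the whole table the ratio was 2.0-fold, and an exact two-sided permutation test of those whole-table sums gave p = 0.1, the smallest value that 3 against 3 libraries can give. Ratios between libraries of the same number were 0.93, 1.15 and 1.0 on the log2 scale. The signal was no more concentrated in a few rings in CPF: the 20 most read circRNAs of each library took 18.7 ± 0.854% of its reads in CPF and 21.2 ± 3.64% in control (SD, n = 3).

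More of the circRNAs were seen in each CPF library. Of the 1353, 967, 981 and 917 were detected in CPF libraries 1 to 3, against 376, 608 and 595 in control libraries 1 to 3. That is 70.6 ± 2.49% of them in a CPF library and 38.9 ± 9.63% in a control library (SD, n = 3), a 1.86-fold difference (log2 ratio 0.89, SE 0.23). Without control 1 the log2 ratio was 0.67 (SE 0.03, which rests on only 2 control libraries). The rule of 2 of 6 libraries counts detection in these same libraries, so it feeds these numbers and those at equal reads. Over the whole table, 1198, 1246 and 1112 circRNAs were detected in CPF libraries, against 470, 694 and 679 in control libraries. That ratio was 1.96-fold, with p = 0.1 by an exact two-sided permutation test, the smallest possible value. The CPF libraries also held more junction reads. At 1590 reads per library, the expected number was 690, 665 and 704 circRNAs in CPF libraries, against 367, 603 and 595 in control libraries. The group ratio was then 1.35-fold (log2 ratio 0.43, SE 0.24), and the CPF libraries lay above all 3 control libraries. Much of that difference came from control 1: without it, a setting chosen after seeing the data, the ratio at equal reads was 1.15-fold (log2 ratio 0.20, SE 0.03). That SE, too, rests on only 2 control libraries, left after the library that stood apart was dropped.

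**Figure D1:**
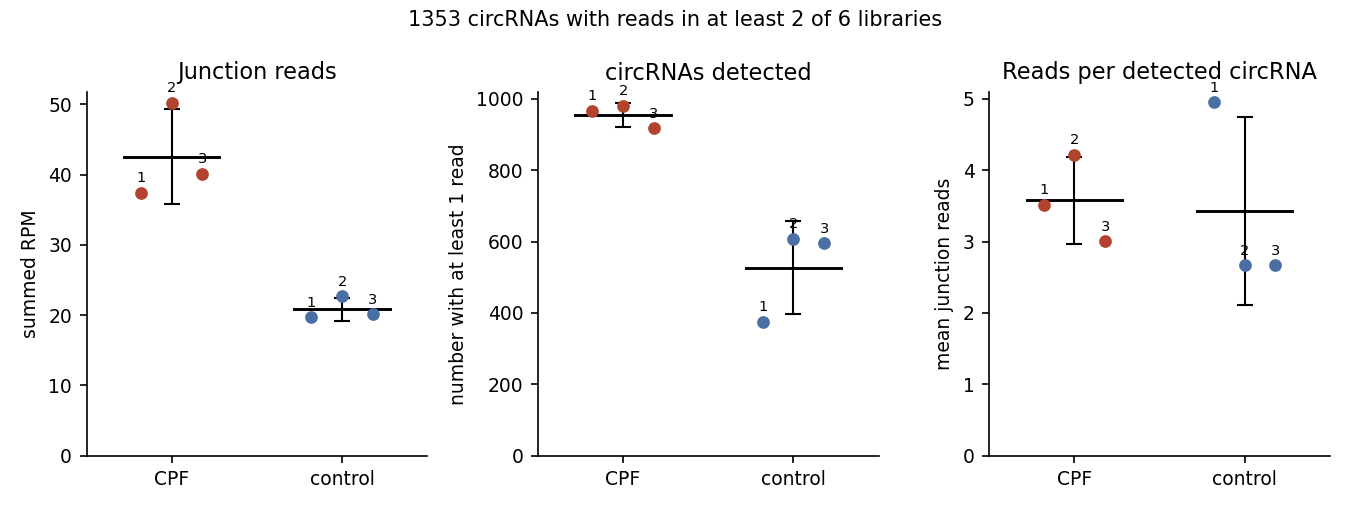
Summed junction RPM (left), number of circRNAs detected (middle) and mean reads per detected circRNA (right) over the 1353 compared circRNAs, in CPF and control libraries. Points are libraries with their number, lines are means and bars are SD (n = 3). CPF libraries lie at 37.4 to 50.2 RPM and control libraries at 19.7 to 22.7 RPM, and control 1 has the fewest circRNAs (376) with the most reads each (4.95).

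The pattern of detection was lopsided. Of the 1353 circRNAs, 851 (62.9%) had reads in more CPF than control libraries, 381 (28.2%) in equal numbers and 121 (8.94%) in fewer. These circRNAs were chosen by reads in the same 6 libraries, and CPF libraries held more junction reads, so the split supports no direction. Outside the rule, 691 circRNAs had reads in 1 CPF library alone and 264 in 1 control library alone. Most were shared: 975 (72.1%) had a read in both groups. There were 349 (25.8%) without a read in any control library, and 29 (2.14%) without a read in any CPF library. In 96 circRNAs every one of the 6 libraries had reads, with 2941 reads in CPF and 1809 in control. A smaller set of 100 was found in all 3 CPF libraries and no control library. These had 3 to 23 reads in all, with a median of 6. Of the 100, 68 also had reads in CYP libraries and 32 had none there. Only 19 of them had at least 10 reads. When at least 3 reads in each CPF library were required, 4 remained. In the other direction, 3 circRNAs were found in all 3 control libraries and no CPF library.

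**Figure D2:**
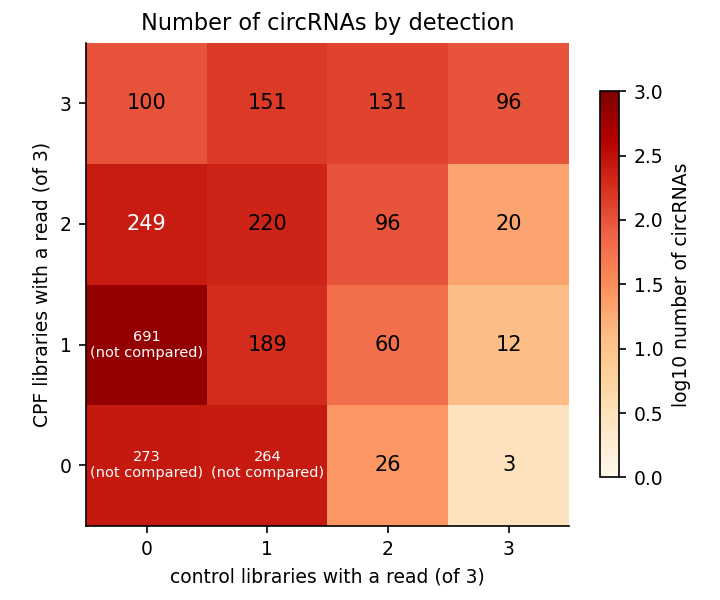
Number of circRNAs by how many of the 3 CPF libraries (vertical axis) and of the 3 control libraries (horizontal axis) held a read, with shading on a log10 scale. Cells with a read in fewer than 2 of the 6 libraries are outside the comparison. The upper left holds 100 circRNAs found in 3 CPF and 0 control libraries, the lower right 3 with the opposite pattern.

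The higher CPF level extended over rings with and without reads in the CYP libraries. The circRNAs were grouped by detection in the CYP libraries, which enter neither the rule of 2 of 6 libraries nor this ratio, though whether CYP reads helped to decide which circRNAs the deposited table holds is unknown. The 159 circRNAs seen in all 3 CYP libraries summed to 17.1 ± 3.20 RPM in CPF and 7.60 ± 0.949 RPM in control, 2.23-fold (log2 ratio 1.16, SE 0.19). Those seen in 2 CYP libraries (272 circRNAs) were 1.98-fold higher (0.98, SE 0.17), and those seen in 1 (454 circRNAs) 2.21-fold higher (1.14, SE 0.13). The 468 circRNAs with no CYP read had the lowest ratio, with 7.17 ± 0.872 RPM in CPF and 4.47 ± 0.747 RPM in control, 1.61-fold (0.69, SE 0.18). In each of the 4 classes every CPF library lay above every control library. All classes still hold circRNAs chosen by reads in the CPF and control libraries, 349 without a control read and 29 without a CPF read. The classes are therefore no independent check of the higher CPF level. The differences between classes were not tested.

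Single circRNAs departed widely from the doubling of the summed level. Among the 85 with at least 30 reads over the 6 libraries, the mean level was higher in CPF for 73 and lower for 12. Their ratios of mean levels had a median of 2.04-fold, with quartiles at 1.35-fold and 4.02-fold. In 32 of the 85 no CPF library reached into the range of the control libraries, all of them higher in CPF, where the background over the whole table was 8.29% higher and 0.426% lower. The minimum of 30 reads counts CPF reads, and circRNAs such as dre_circ_1917 (36 reads in CPF, 1 in control) and dre_circ_2168 (43 and 3) pass it only through them, so these counts describe the 85 and support no direction. Replicates also differed from each other at this level. The coefficient of variation between libraries had a median of 40.3% in CPF and 79.8% in control, and control 1 held no read of 19 of these 85 circRNAs, against 9 for control 2 and 7 for control 3. Many of the 85 had few control reads, where counting alone widens the coefficient, so these medians do not compare replicate spread between groups. Across all 1353 circRNAs, which are not independent replicates, the correlation of log2 levels was 0.411 to 0.449 between CPF libraries, 0.219 to 0.346 between control libraries and 0.137 to 0.399 between the groups. Many of these circRNAs stood at 0 or 1 read in the libraries compared.

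By limma on log2(RPM + 0.0126) in all 9 libraries, CYP included, 5 circRNAs rose in CPF and 0 fell at an adjusted p under 0.05. In a fit of the 6 CPF and control libraries alone, 0 passed in either direction. The 9-library test covered 1158 circRNAs of the table with reads in at least 3 of the 9 libraries. The 5 are thus a background of 0.432% called higher, and 0% were called lower. Of the 1353 compared, 1115 passed that filter and 238 did not. A circRNA silent in control passes the filter only through reads in CPF or CYP, so the tested set leans toward circRNAs with CPF reads. Before adjustment, 194 circRNAs were higher and 10 were lower in CPF at p under 0.05, a background of 16.8% and 0.864% of those tested. All 204 were among the compared circRNAs. Of the 194, 106 had no control read at all, 84 had fewer than 10 reads over the 6 libraries, and 173 had 0 reads in control 1. Without control 1, 113 of these 194 kept an unadjusted p under 0.05. Other tools made no lower call either: edgeR with TMM and DESeq2 gave 0 calls in both directions, with 113 and 23 higher and 8 and 10 lower before adjustment, and edgeR with library totals gave 1 higher and 0 lower (173 and 7 unadjusted).

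**Figure D3:**
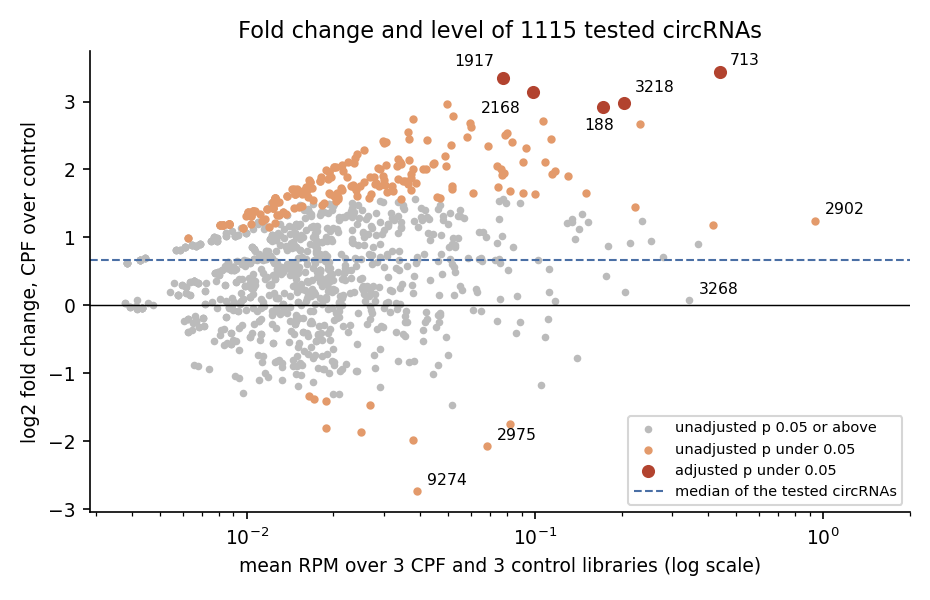
Log2 fold change of CPF over control by limma (vertical axis) against mean RPM over the 6 libraries (horizontal axis, log scale) for the 1115 tested circRNAs. Dark red points are the 5 circRNAs that passed, orange points those at an unadjusted p under 0.05, and numbers are circRNA names without their prefix. The dashed line is the median, 0.66, and the 194 orange and dark red points above 0 outnumber the 10 below it.

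The circRNA with the smallest p was dre_circ_713, the second most abundant of the 1353 by mean RPM over the 6 libraries. It measured 0.418, 0.983 and 0.931 RPM in CPF libraries 1 to 3, against 0, 0.168 and 0.126 RPM in control libraries 1 to 3. Its lowest CPF library stood above its highest control library, and its reads numbered 183 in CPF and 22 in control. The fitted log2 fold change was 3.44 with an SE of 0.69, and it passed (limma adjusted p = 0.0020). In pooled reads per library total the ratio was 8.43-fold (95% counting interval 5.40 to 13.8). Without control 1, which had no read of it, the log2 fold change was 2.22 (limma adjusted p = 0.038), and without CPF 3 it was 3.26 and missed the threshold (limma adjusted p = 0.060). Over all alternatives its adjusted p ran from 4.9e-05 to 0.999. The CYP libraries held 0.252, 0.244 and 0.0280 RPM.

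dre_circ_1917 was close to silent in untreated brain. It had 11, 14 and 11 reads in CPF libraries, or 0.121, 0.170 and 0.160 RPM, against 0, 0 and 1 read in control libraries. CPF replicates lay close together here, at 0.150 ± 0.0259 RPM (SD, n = 3). Limma put the log2 fold change at 3.34 (SE 0.79; adjusted p = 0.022), and the ratio of pooled reads was 36.5 with a counting interval of 6.14 to 1480, wide because it rests on 1 control read. CYP libraries had 2, 4 and 1 reads. The call was lost without CPF 2 (limma adjusted p = 0.252) and without CPF 3 (0.102), within a range of 0.0050 to 0.761 over the alternatives.

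dre_circ_2168 had 8, 19 and 16 reads in CPF libraries (0.0879, 0.231 and 0.233 RPM), and its only control reads were 3 in control 2 (0.0419 RPM). CPF and control did not overlap. Limma put the log2 fold change at 3.14 (SE 0.77; adjusted p = 0.022; pooled ratio 14.5, counting interval 4.65 to 73.2). It was also present in CYP, with 6, 7 and 9 reads, each library above the highest control level in RPM. It missed the threshold without CPF 2 (limma adjusted p = 0.280), CPF 3 (0.121) or control 3 (0.109), within a range of 0.0050 to 0.793.

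dre_circ_3218 measured 0.220, 0.425 and 0.436 RPM in CPF libraries, against 0, 0.0839 and 0.0632 RPM in control libraries, with 85 and 11 reads in all. The groups were far apart, and again control 1 was at 0. Limma put the log2 fold change at 2.98 (SE 0.73; adjusted p = 0.022). Without control 1 it was 2.06 and missed the threshold (limma adjusted p = 0.214), as it did without CPF 2 (0.277) or CPF 3 (0.121), within a range of 0.0050 to 0.761. The CYP level, 0.0768 ± 0.0235 RPM (SD, n = 3), had 2 libraries within the range of the control libraries.

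dre_circ_188 was the only one of the 5 with reads in every control library. It had 22, 39 and 16 reads in CPF libraries (0.242, 0.473 and 0.233 RPM) and 2, 3 and 2 reads in control libraries (0.0211, 0.0419 and 0.0253 RPM). Its control replicates were even, at 0.0294 ± 0.0110 RPM (SD, n = 3). Limma put the log2 fold change at 2.92 (SE 0.73; adjusted p = 0.024; pooled ratio 11.1, counting interval 5.16 to 28.6), and it changed little without control 1 (2.78; limma adjusted p = 0.038). The call was lost without CPF 1 (limma adjusted p = 0.075), CPF 2 (0.280), CPF 3 (0.102) or control 3 (0.058), within a range of 0.0070 to 0.546.

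**Figure D4:**
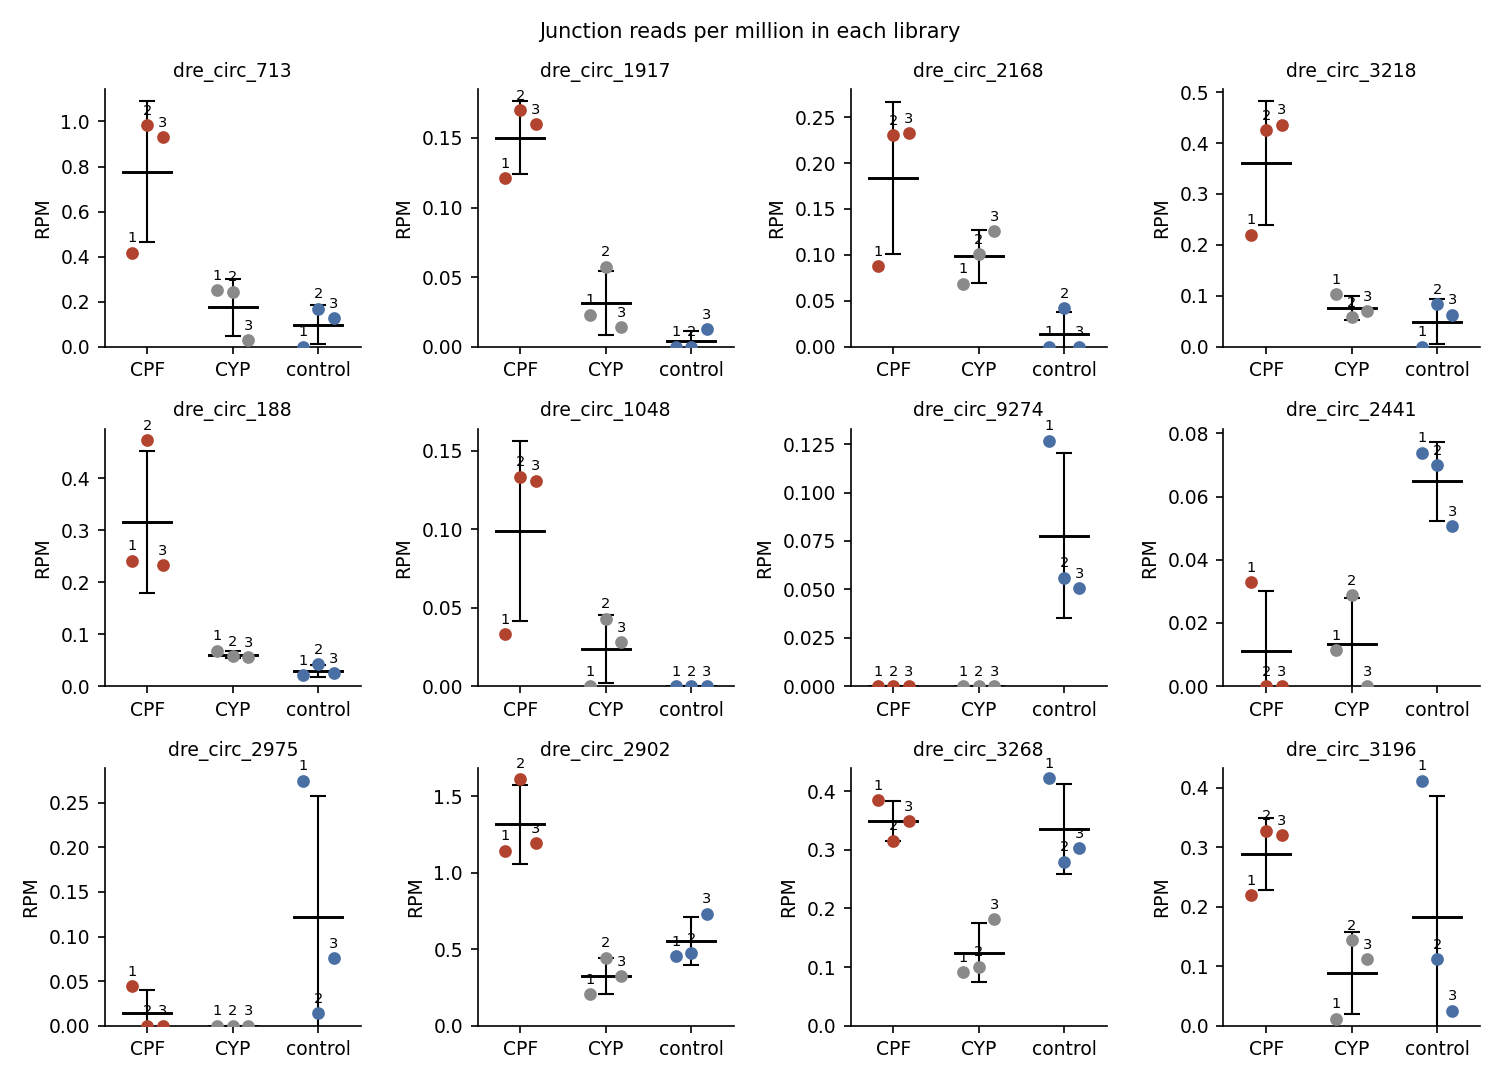
Junction level in RPM in each library for 12 circRNAs, with groups in the order CPF, CYP and control. Points are libraries with their number, lines are means and bars are SD (n = 3, bars below 0 are not drawn). The first 5 panels are the circRNAs that passed the test; dre_circ_9274, dre_circ_2441 and dre_circ_2975 are lower on average in CPF, and dre_circ_3268 has 0.316 to 0.385 RPM in CPF and 0.280 to 0.422 RPM in control.

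The 10 next circRNAs with higher CPF values missed the threshold, with limma adjusted p from 0.053 to 0.131 and fitted log2 fold changes of 2.45 to 2.96. In 9 of them CPF and control libraries did not overlap, against 8.29% of the whole table and 19.2% of the 1115 tested with CPF higher. The 10 were picked by small p in these same libraries, so the 9 support no direction. The first, dre_circ_1048, had 3, 11 and 9 reads in CPF libraries and none in control libraries. That is 7.77-fold above a limit of 3 reads over the control group, with the CPF reads taken as counted. The counting interval of its pooled ratio began lower, at 5.82. dre_circ_1575, with 9, 7 and 3 reads, and dre_circ_2963, with 5, 11 and 2 reads, also had no control read. They stood 6.42-fold and 6.08-fold above that limit, with counting intervals that began at 4.73 and 4.45. The most even was dre_circ_508, with 9, 8 and 7 reads in CPF libraries (0.0993 ± 0.00239 RPM, SD, n = 3) and 1 read in control. The most abundant was dre_circ_1450, with 0.352, 0.595 and 0.218 RPM in CPF libraries and 0, 0.126 and 0.101 RPM in control libraries; its log2 fold change of 2.67 became 1.56 without control 1. dre_circ_1474 had 47 reads in CPF and 6 in control, dre_circ_1529 had 46 and 8, and dre_circ_1331 had 26 and 2.

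In some circRNAs with higher CPF values, not all of them among those above, 1 CPF library carried much of the signal. dre_circ_1259 had 7, 20 and 2 reads in CPF libraries against 1 read in control, and CYP 2 alone held 12. dre_circ_1897 was more even, with 13, 15 and 5 reads in CPF libraries, but control 3 held 6, so its groups overlapped. Among circRNAs with no control read, dre_circ_1686 had 4, 16 and 1 reads and dre_circ_1971 had 3, 13 and 2 reads in CPF libraries, in both cases with most reads in CPF 2. They stood 7.09-fold and 6.08-fold above a limit of 3 control reads, with counting intervals that began at 5.28 and 4.45. dre_circ_1686 was as well read in CYP, with 7, 6 and 4 reads.

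No circRNA passed the test as lower in CPF, and the candidates were few and thinly read. The 10 at an unadjusted p under 0.05 held 21 reads in CPF and 158 in control together, and control 1 was the highest control library for 7 of them. Without control 1, 6 of the 10 still had enough libraries with reads to be tested, and 4 kept an unadjusted p under 0.05. The smallest p was that of dre_circ_9274, with 0 reads in every CPF library against 12, 4 and 4 in control libraries (0.127, 0.0559 and 0.0506 RPM). Its control level stood 6.58-fold above a limit of 3 reads over the CPF group, with the control reads taken as counted. The counting interval of its pooled ratio, CPF over control, ran from 0 to 0.205. It had no CYP read either and missed the threshold (limma adjusted p = 0.070). Without control 1 its control level was 4.29-fold above that limit on 8 control reads, and too few libraries remained for the test. dre_circ_9018 had 0 reads in CPF against 7, 1 and 2 in control libraries, again with none in CYP. Its control level was 3.29-fold above that limit (counting interval of the ratio 0 to 0.452, limma adjusted p = 0.155). Its control reads outside control 1 numbered 3, too few for a limit.

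dre_circ_2441 had the evenest control values among them, 7, 5 and 4 reads (0.0648 ± 0.0125 RPM, SD, n = 3). Its CPF libraries held 3, 0 and 0 reads, and the groups did not overlap (log2 fold change -1.98, SE 0.79; limma adjusted p = 0.162). dre_circ_2883 had 9, 0 and 2 reads in CPF libraries and 14, 9 and 7 in control libraries, with an overlap between CPF 1 and control 3. Its log2 fold change of -1.75 was -0.94 without CPF 2. For dre_circ_2975, CPF libraries had 4, 0 and 0 reads and control libraries 26, 1 and 6, so most of its control signal came from control 1. Its log2 fold change was -2.08 with all libraries and -1.22 without control 1. Control 1 also held most control reads of dre_circ_8719 (8 of 9) and about equal numbers with control 3 of dre_circ_7254 (7 and 6). Neither had a CPF read, and their control levels stood 2.96-fold and 4.28-fold above a limit of 3 CPF reads. The counting intervals of their pooled ratios reached up to 0.513 and 0.332. Without control 1, dre_circ_8719 kept 1 control read and dre_circ_7254 kept 6, which was 3.21-fold above that limit.

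The most abundant circRNAs were higher on average in CPF, though few stood clear of replicate error. All 20 with the highest mean RPM over the 6 libraries had a higher mean in CPF, a set into which a high CPF level helps a circRNA. The groups did not overlap for 9 of the 20, against 8.29% of the whole table and 19.2% of the 1115 tested with CPF higher. Among the 85 circRNAs with at least 30 reads, the groups did not overlap for 32. Of the 20, 3 passed the test, against 0.432% of all tested. dre_circ_2902, the most abundant, measured 1.14, 1.61 and 1.19 RPM in CPF libraries and 0.454, 0.475 and 0.733 RPM in control libraries, a pooled ratio of 2.39 (counting interval 1.95 to 2.95). No CPF library overlapped with control, yet the log2 fold change of 1.25 (SE 0.47) missed the threshold (limma adjusted p = 0.155). It became 0.26 under equal circRNA totals. Its 3 CPF values are the cells whose decimal point was restored.

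dre_circ_33 followed, with 0.593 ± 0.286 RPM in CPF and 0.237 ± 0.0518 RPM in control (SD, n = 3), and without overlap (limma adjusted p = 0.248). Its log2 fold change of 1.19 became 0.22 under equal circRNA totals. dre_circ_517 had 0.364 to 0.704 RPM in CPF and 0.127 to 0.341 RPM in control, also without overlap (limma adjusted p = 0.378). Under equal circRNA totals its log2 fold change of 0.91 became -0.055. dre_circ_2369 (0.189 to 0.570 RPM in CPF, 0.126 to 0.303 RPM in control) and dre_circ_243 (0.262 to 0.385 RPM in CPF, 0.112 to 0.278 RPM in control) overlapped between groups, and their log2 fold changes of 0.70 and 0.94 became -0.25 and -0.0053 under equal circRNA totals.

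Among the 20 most abundant rings, dre_circ_3268, dre_circ_3035 and dre_circ_309 had the log2 fold changes nearest 0, and they were picked for that. dre_circ_3268, the fifth most abundant, had 35, 26 and 24 reads in CPF libraries and 40, 20 and 24 in control libraries. Its levels were 0.350 ± 0.0345 RPM in CPF and 0.335 ± 0.0765 RPM in control (SD, n = 3), a difference smaller than the spread between replicates, with a pooled ratio of 1.03 (counting interval 0.749 to 1.4). All its CYP libraries, at 0.0915 to 0.182 RPM, lay below both groups. Its log2 fold change was 0.077 in RPM (SE 0.60) and -0.88 under equal circRNA totals, where it did not pass either, so its direction depended on the scaling. dre_circ_3035 and dre_circ_309 had pooled ratios of 1.31 (counting interval 0.870 to 1.99) and 1.04 (0.669 to 1.61). Both varied widely: dre_circ_3035 had 31, 5 and 21 reads in CPF libraries, and dre_circ_309 had 27, 3 and 14 in control libraries. dre_circ_3196 showed how far control libraries could differ, with 20, 27 and 22 reads in CPF libraries and 39, 8 and 2 in control libraries.

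Counted one by one, 214 circRNAs had all CPF libraries above all control libraries and 11 had all CPF libraries below. These are 15.8% and 0.813% of the 1353, against a background of 8.29% and 0.426% of the whole table. Both sets lie wholly within the 1353, because a circRNA read in 1 of the 6 libraries cannot separate the groups. Of the 214, 100 were those without a control read. When each library was scaled to the same circRNA total, the split became 135 above and 32 below.

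Fold changes over the tested circRNAs moved with the scaling. In RPM the median log2 fold change of the 1115 was 0.66, against 0.63 over all 1158 tested, and 77.6% were positive. Scaling to equal circRNA totals moved the median to 0.25 and the share of positive values to 62.8%, and quantile normalization moved them to 0.038 and 51.3%. The split before adjustment, which was 194 higher against 10 lower in RPM, was 66 and 15 with equal totals and 33 and 39 after quantile normalization, and 0 circRNAs passed an adjusted p under 0.05 under either. The 5 circRNAs that passed in RPM had log2 fold changes of 2.60 for dre_circ_713, 2.72 for dre_circ_1917, 2.52 for dre_circ_2168, 2.18 for dre_circ_3218 and 2.07 for dre_circ_188 under equal totals. The limma adjusted p there was 0.143 for dre_circ_713 and 0.327 for each of the others. These circRNAs were selected for CPF excess in the same values, so lying above the median is no support.

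**Figure D5:**
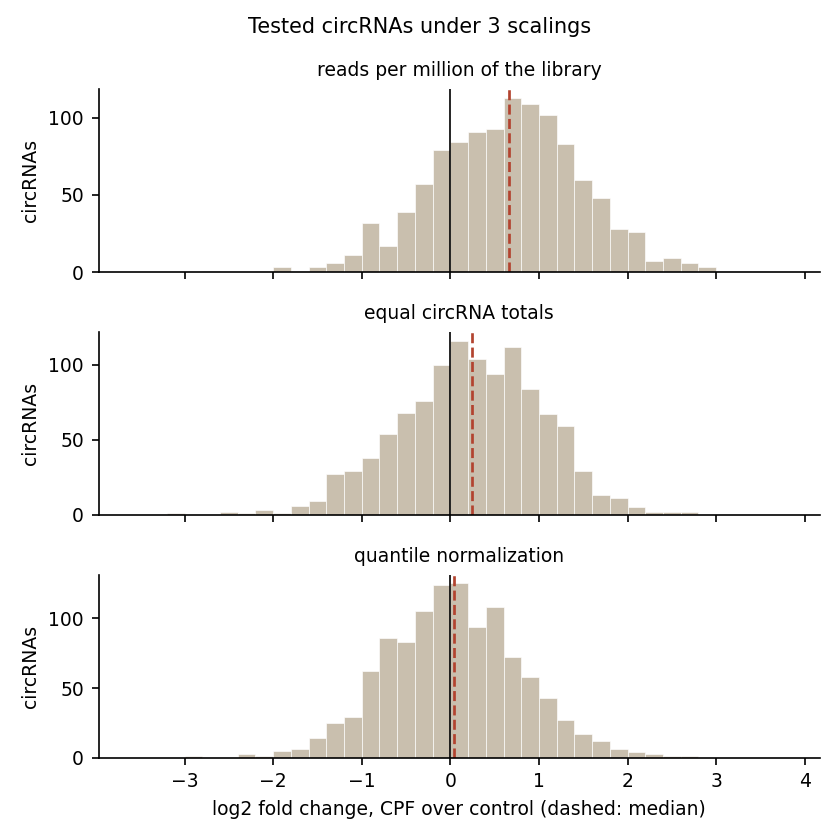
Log2 fold changes of CPF over control for the 1115 tested circRNAs (horizontal axis) and their number per bin (vertical axis) under 3 scalings. The solid line is 0 and the dashed line the median, which is 0.66 in RPM, 0.25 with equal circRNA totals and 0.038 after quantile normalization.

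The authors' deposited table for this comparison lists 60 circRNAs, 57 higher and 3 lower in CPF, and all 60 are among the 1353. The authors' deposited table gives them an adjusted p of 0.461 or more. Its log2 fold changes equal the ratio of the pooled reads plus 3 of each group within 0.001, with no correction for library totals. Of the 60, 49 had no overlap between groups, 59 had an unadjusted p under 0.05 by limma and 5 passed the adjusted threshold. The 59 are 98.3% of the authors' list and 28.9% of the 204 circRNAs at that limma p. The list was chosen on these libraries, so this is no independent evidence. The listed circRNAs with the smallest adjusted p were dre_circ_713 and dre_circ_188, each with 0.461 and log2 fold changes of 2.90 and 3.0 in the authors' deposited table. Their unadjusted p-values are the 2 without a decimal point, which were not used. Next by unadjusted p came dre_circ_3218, dre_circ_1917 and dre_circ_2168, with log2 fold changes of 2.65, 3.29 and 2.94 in the authors' deposited table. These 5 are the same circRNAs that passed by limma. The 3 listed as lower are dre_circ_2975, dre_circ_9274 and dre_circ_7254, at -2.36, -2.94 and -2.42 in the authors' deposited table.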

How the data were processed

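Levels of circRNAs were measured in 9 zebrafish brain libraries, 3 per group. For control and CYP, the deposited numbers, labelled TPM, were taken as RPM: a circRNA's junction reads divided by a total that the authors set for each library, times 1000000. That reading rests on the whole multiples described below, and that the reads cross back-splice junctions was assumed. For CPF the deposited signal is on that scale too, but 3 cells, all of dre_circ_2902, lacked the decimal point, which was put back behind the first digit. Every value was a whole multiple of its column's smallest value above 0 (100% at a tolerance of 1e-06), which gave the whole reads and the library totals. The submitters' processing notes name DESeq2 and the build UMD3.1, a cattle assembly, without a role; aligner, circRNA caller and filter: not given in the sources used here. In the authors' deposited table of this comparison, log2 fold changes were repaired in the same manner. Its adjusted p-values are printed as the authors gave them, and 2 p-values without a decimal point were not used.

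One limma 3.58.1 fit (R 4.3.3; mean-variance trend, empirical Bayes) took in all 9 libraries, on log2(RPM + 0.0126), where 0.0126 is the value of 1 read (median over libraries). circRNAs above 0 in at least 3 of 9 libraries were tested, with Benjamini-Hochberg adjustment and a threshold of 0.05. Alternatives included pseudocounts of 0.00316 and 0.0506, other filters and scalings, and, on the recovered counts behind the deposited values, edgeR 4.0.16 and DESeq2 1.42.0. Numbers at equal reads are exact rarefaction expectations. Ratios of pooled reads carry exact binomial intervals. The rule for named circRNAs took those that passed, the next 10 higher and 6 lower by p, the 8 most abundant, the 4 of each group with most reads and none in the other group, the 3 lower and 5 leading higher ones of the authors' list, and the 3 of the 20 most abundant with a fold change nearest 0. The circRNAs compared, the rule and the lists were chosen with earlier results of these data known. Scripts were tested on simulated data. The other software was Python 3.11.15, scipy 1.17.1, pandas 2.3.3, numpy 2.4.6 and, for figures, matplotlib 3.10.9.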

Additional observations from a re-analysis of the deposited data

How the results depend on the processing

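At an adjusted p under 0.05, the count higher in CPF (5) was 0 with a pseudocount of 0.00316, equal circRNA totals, quantile normalization, the 6 CPF and control libraries alone, edgeR with TMM or DESeq2. It was 1 with edgeR on library totals, 2 with no filter, 8 with a pseudocount of 0.0506 and 15 with a filter of 6 of 9 libraries. Leaving out a library gave 0 (without CPF 3) to 8 (without control 2), and 1 without CPF 2. The count lower (0) was 1 with a pseudocount of 0.0506, dre_circ_9274. Before adjustment, the 194 higher were 72 with the filter of 6 of 9, 66 with equal totals, 33 with quantile normalization, 113 with edgeR and TMM, 23 with DESeq2 and 118 to 168 on leaving out a library. The 10 lower were 2 with that filter, 23 when all 1353 were tested, 39 with quantile normalization and 4 to 15 on leaving out a library. The median log2 fold change (0.66) was 1.22 with the small and 0.27 with the large pseudocount, 0.25 with equal totals and 0.038 with quantile normalization. By count models it was 0.89 (edgeR, TMM), 1.20 (edgeR, library totals) and 0.47 (DESeq2), and 0.60 to 0.81 on leaving out a library. The log2 ratio of detected numbers (0.89) was 0.43 at equal reads, 0.20 at equal reads without control 1 (chosen after seeing the data), 0.51 over circRNAs in at least 4 of 6 libraries and 0.67 to 1.01 on leaving out a library. That of summed RPM lay between 0.90 and 1.11 on leaving out a library. Sets without overlap (214 higher, 11 lower) numbered 135 and 32 with equal totals, and 114 higher over circRNAs in at least 4 of 6 libraries. Leaving out a library, where 3 against 2 separate more easily, gave 245 to 394 and 16 to 52. Presence in all 3 CPF and no control libraries (100) was 29 at 2 reads, 4 at 3 reads and 349 for 2 of 3 libraries, and the opposite (3) was 1, 1 and 29.

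Signs turned only in named circRNAs that had not passed. dre_circ_3268 was at -0.88 with equal totals, -0.57 with quantile normalization, -0.20 by edgeR with TMM, -0.80 by DESeq2 and -0.037 without control 2. dre_circ_309 was at -0.49, -0.23, -0.12 and -0.81 in the same 4 settings, and between -0.28 and 0.94 on leaving out a library. dre_circ_3035 was at -0.71, -0.42 and -0.39 with equal totals, quantile normalization and DESeq2, and between -0.21 and 0.92 on leaving out a library. dre_circ_2369 was at -0.25, -0.17 and -0.067 in those 3 settings, dre_circ_517 and dre_circ_243 at -0.055 and -0.0053 with equal totals, and dre_circ_3196 at -0.35 by DESeq2. The cause was not tested.

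Same-numbered CPF and control libraries had correlations of deviations of 0.05, 0.11 and -0.03 over 1158 circRNAs. With so few reads per circRNA, these values cannot tell whether such libraries share more than a number. With the replicate block, 5 were called higher and 0 lower, with 200 and 10 before adjustment, and the median was 0.66. The log2 ratio of summed RPM within numbers was 1.02 (SE 0.065), against an SE of 0.14 without pairing. No label pairs these libraries. Their sums had the same rank order by number in both groups, which narrows that SE, so it does not show that they are paired. With 2.67 to 4.95 reads per detected circRNA and 3 libraries a group, small differences were not detectable for most circRNAs.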

Other observations

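The circRNA numbers run in blocks by library. Every circRNA of the table numbered up to 3300 has a read in CPF 1, numbers 3303 to 5730 have their first read in CPF 2, and so on through CPF 3 and the CYP libraries to control 3, where they end at 10372. Of the numbers in the block of CPF 1, 36.3% are in the table, against 23.0% for CPF 2 and 18.5% for CPF 3. For CYP 1 to 3 the shares are 21.6%, 15.8% and 17.5%, and for control 1 to 3 they are 26.9%, 15.3% and 11.5%. A later block leaves out every circRNA of the table with a read in an earlier library. The order of libraries thus enters these shares, so they are no measure of how the filter treated each group. How circRNAs were kept for the table is not given in the sources used here, so its part in the higher CPF totals was not tested.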
